A study of Homo sapiens with 6 samples.

Results

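The SALL family consists of 4 human genes, SALL1, SALL2, SALL3 and SALL4, and all 4 were followed here among 20015 protein-coding genes. They were taken by name, and each was read through the peaks that lay within 1500 bp of any of its GENCODE v44 transcript starts. The data were sequential ChIP-seq (reChIP-seq) peak lists of untreated parental NCI-H661 cells, a line from a large cell carcinoma of the lung, with 1000000 crosslinked cells in each reChIP. In K4-K119, chromatin was pulled down for H3K4me3 and the eluate again for H2AK119ub. In K119-K4 the order was turned around, and in IgG-IgG both steps used rabbit IgG, with 2 biological replicates of each of the 3 conditions. All libraries came from 1 cell line, and none paired a histone antibody with IgG in the second step, so carry-over from the first pull-down could not be measured.

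SALL proteins are the vertebrate relatives of the fly homeotic factor spalt. They bind DNA through pairs of zinc fingers and act mainly as repressors, in part because a short motif at their N terminus recruits the NuRD complex, a histone deacetylase and nucleosome remodeler. SALL4 is expressed in embryonic stem cells and the fetal liver and is switched on again in many cancers, SALL1 is needed for kidney development, SALL3 takes part in nervous system and limb development, and SALL2, the most divergent member, acts in eye development and growth control. H3K4me3 marks active and poised promoters and H2AK119ub is placed by Polycomb repressive complex 1, and reChIP is meant to recover chromatin fragments that carry both.

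The promoter sequences of the family differed in their density of CpG, the dinucleotide that both marks are known to follow. The RefSeq promoter table of GRCh38.p14 matched 2 of the 4 genes, SALL2 and SALL3. The stretches upstream of the first base of the SALL3 main start, the SALL2 distal starts and the SALL2 proximal starts are shown. The SALL3 main and SALL2 proximal starts had peaks of at least 10 reads in the same 3 reChIP libraries. The SALL2 distal starts had such a peak in K4-K119 replicate 1 only. The first and second stretches were taken from the RefSeq table, and the third was read from hg38. Each is written 5′ to 3′ on the strand of the gene, and CG dinucleotides, which read the same on both strands, are in capitals.
SALL3 main start: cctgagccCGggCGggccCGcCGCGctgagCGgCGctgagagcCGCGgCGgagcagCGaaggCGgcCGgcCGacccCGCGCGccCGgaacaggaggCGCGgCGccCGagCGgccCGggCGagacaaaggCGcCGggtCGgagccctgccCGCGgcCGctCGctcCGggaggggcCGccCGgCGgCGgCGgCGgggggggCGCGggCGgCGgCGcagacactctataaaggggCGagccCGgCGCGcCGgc
SALL2 distal starts: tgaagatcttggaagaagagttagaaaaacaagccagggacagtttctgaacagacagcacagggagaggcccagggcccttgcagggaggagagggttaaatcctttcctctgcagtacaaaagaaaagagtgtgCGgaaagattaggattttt
SALL2 proximal starts: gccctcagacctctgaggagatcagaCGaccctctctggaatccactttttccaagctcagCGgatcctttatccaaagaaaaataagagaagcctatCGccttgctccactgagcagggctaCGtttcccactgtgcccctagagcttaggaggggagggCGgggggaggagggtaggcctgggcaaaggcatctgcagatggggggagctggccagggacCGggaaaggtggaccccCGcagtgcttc
The SALL3 stretch (chr18:78979568-78979817, plus strand, 250 bp) held 49 CG and was 84.4% G and C. The SALL2 distal stretch (chr14:21537217-21537371, minus strand, 155 bp) held 1 CG, and the SALL2 proximal stretch (chr14:21526501-21526750, minus strand, 250 bp) held 7. Of the 35116 RefSeq promoters of 300 bp, 96.0% held at least 1 CG, with a median of 14.

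Over the whole window of 1500 bp on either side of the canonical start, SALL3 was among the promoters with most CpG in the genome. It held 414 CpG, and 99.985% of protein-coding genes had fewer around their canonical start. SALL1 held 267, more than 98.01% of genes, and SALL4 held 135, more than 62.1%. SALL2 held 85 around its canonical start, below the median of 115 over all genes, and between 46 and 48 around its 4 distal starts.

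The 4 reChIP libraries differed in how much was listed. Reads in listed peaks numbered 1977756 and 918532 in the K4-K119 replicates and 1580579 and 867173 in the K119-K4 replicates, against 58980 and 65445 in IgG-IgG. Between 65.9% and 81.1% of the listed reChIP peaks, and 95.5% and 96.1% of the IgG-IgG peaks, held only 2 reads, the fewest that a listed peak had at these genes. Peaks of at least 10 reads were therefore counted apart from smaller ones. Reads below the peak threshold are not in the lists, so a value of 0 states only that no peak was listed. Where 4 values are listed for a gene, they are those of K4-K119 replicates 1 and 2 followed by K119-K4 replicates 1 and 2. With 2 libraries against 2, the smallest p that an exact permutation test can give is 0.33, so the reads of single genes are given as values.

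SALL4 was the member with the most even signal. Its promoter peaks summed to 312, 209, 315 and 153 reads, with 0 in both IgG-IgG libraries. Each reChIP library listed 1 large peak at the start of the gene, and the ranges of the 2 orders overlapped. These sums exceeded those of 94.4%, 97.4%, 94.9% and 96.3% of protein-coding genes in the same 4 libraries. The ranks of its large peak by fold over input were far lower and are given below.

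SALL3 and SALL2 gave signal in 3 of the 4 reChIP libraries. The SALL3 sums were 336, 107, 112 and 4 reads. The SALL2 sums were 168, 63, 70 and 4 reads. The second K119-K4 replicate was the low library for both genes and listed only peaks of 2 reads. The large peaks of the other libraries were not listed there, so the reads at their place are not known. Neither gene had an IgG-IgG peak at a start.

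SALL1 had 111 reads in K4-K119 replicate 1 and no comparable value elsewhere. The other K4-K119 replicate listed no peak at its starts, and each K119-K4 library listed 2 reads in 1 peak. The plot of promoter reads by library shows this order of the 4 genes. In K4-K119 replicate 1 a log2 fold of 1 over input took 0.657 reads per input read. In the other reChIP libraries it took 7.24 to 9.48. How far this scale shaped which genes had a peak in that library alone was not tested.

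Counted as genes with a promoter peak of at least 10 reads, all 4 members passed in K4-K119 replicate 1, where 70.6% of protein-coding genes did. In K4-K119 replicate 2, 3 members passed against 41.6% of genes, and in K119-K4 replicate 1, 3 passed against 47.0%. In K119-K4 replicate 2 only SALL4 passed, against 32.8% of genes. SALL4 was the 1 member with such a peak in all 4 reChIP libraries, as were 5765 genes (28.8%). The pattern of SALL2 and SALL3, present everywhere but in K119-K4 replicate 2, was shared by 1773 genes, and that of SALL1, present in K4-K119 replicate 1 alone, by 3852 genes. With 4 members these counts do not set the family apart from other genes.

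SALL4 (ENSG00000101115) lies on the minus strand of chromosome 20, with its canonical start at 51802521 (SALL4-201, hg38). The large peak covered most or all of exon 1 and ran into the first intron in every library, with its upstream edge at -79 or 21 bp along the gene from this start. It spanned 51799101-51802500 in K4-K119 replicate 1 (306 reads, 3400 bp) and 51799801-51802600 in replicate 2 (209 reads, 2800 bp). In K119-K4 it spanned 51800001-51802600 (315 reads, 2600 bp) and 51800101-51802500 (153 reads, 2400 bp). The body of the peak lay downstream of the start, and 4 of the 5 annotated starts fell within it or within 21 bp of its edge. The fifth start, of SALL4-204 at 51793078, had no listed peak within 1500 bp in any library.

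SALL3 (ENSG00000256463) lies on the plus strand of chromosome 18, with its canonical start at 78979818 (SALL3-202). A peak around this start held 277 reads in K4-K119 replicate 1 (78978001-78981500) and 75 in its second replicate (78978701-78981600). With the order reversed it held 73 reads in replicate 1 (78978601-78981000), whereas replicate 2 listed 1 peak of 2 reads at 78979901-78980000. A separate peak lay over exon 2, next to the start of the shorter transcript SALL3-201 at 78991682. It held 57, 30 and 37 reads in the first 3 libraries and was not listed in K119-K4 replicate 2.

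The exon 2 peak of SALL3 covered the SALL3-201 start in K4-K119 replicate 1 only, where it began at 78991601. In the other libraries it began at 78992101 and 78992201, inside the exon. The window around this start held 182 CpG, more than 84.0% of genes had at their canonical start. Another peak lay upstream of the main start, outside the promoter window, with 56 reads in the first K4-K119 replicate (78973601-78975200) and 14 reads in the first K119-K4 replicate. LINC01896, an lncRNA on the other strand that starts at -744 bp, shared the main peak, and the reads cannot be divided between the genes.

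SALL2 (ENSG00000165821) lies on the minus strand of chromosome 14 and has 7 transcripts that start in 2 clusters. The proximal cluster runs from 21526227 to 21526500 and holds the canonical start (SALL2-202, 21526346), and the distal cluster runs from 21536902 to 21537216. The proximal peak held 125 reads (21525501-21527500), 61 reads (21525201-21527800) and 68 reads (21525301-21527300) in the first 3 libraries, and it covered all 3 proximal starts each time. The distal cluster, whose stretch above held 1 CG, had a peak of 36 reads over its 4 starts (21536201-21537300) in K4-K119 replicate 1 and at most 1 peak of 2 reads in each other library.

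SALL1 (ENSG00000103449) lies on the minus strand of chromosome 16, with its canonical start at 51151270 (SALL1-201). The peak in K4-K119 replicate 1 held 109 reads, spanned 51150301-51153000 (2700 bp) and covered the starts of all 7 transcripts. Its width was above that of 88.7% of the 15476 promoter peaks of at least 10 reads in this library, while its read density, 40.4 per kb, was below the median of 48.2. The lncRNAs ENSG00000285367 and ENSG00000261238, which start 500 and 2031 bp downstream on the other strand, had the same peak within 1500 bp of a start. No IgG-IgG peak lay inside any of the 4 genes or at their starts.

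**Figure D1:**
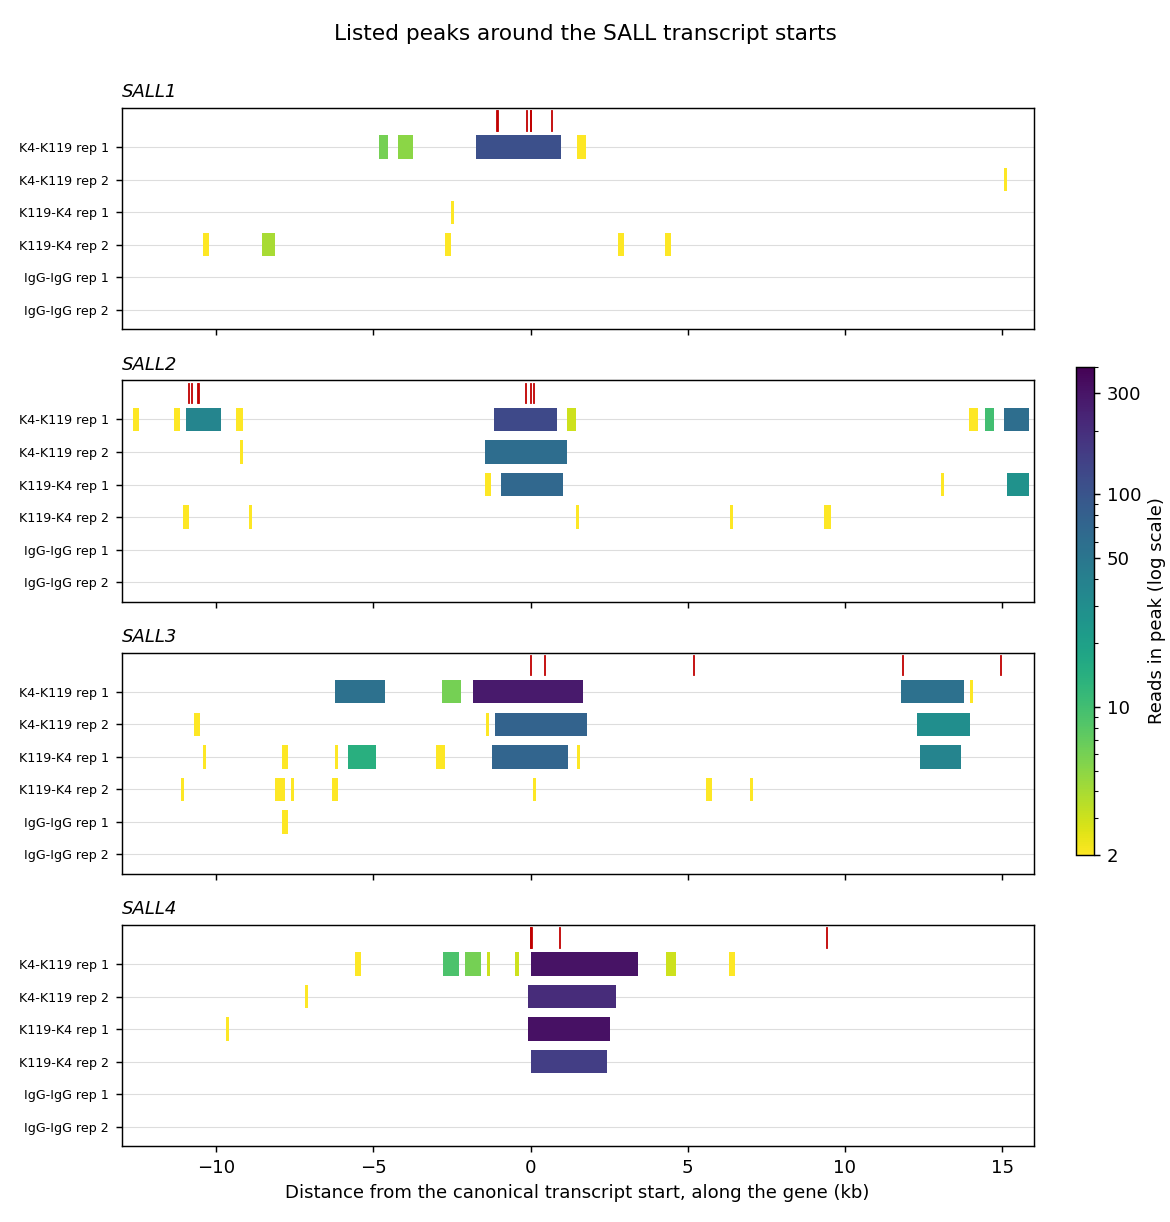
Listed peaks of the 6 libraries around each SALL gene, by distance in kb from the canonical transcript start along the gene, with bars coloured by reads in the peak on a log scale and red ticks for annotated starts. SALL4 had 1 dark bar just downstream of its start in all 4 reChIP libraries, and SALL3 had bars at the main start and over exon 2. SALL2 had a bar at the proximal starts and a weaker one about the distal starts in 1 library. SALL1 had 1 bar of at least 10 reads, in K4-K119 replicate 1, beside bars of fewer reads.

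The study defined regions carrying both marks by a series of filters, which were rebuilt here to see which SALL promoters passed them. Peaks were kept at a log2 fold over input above 1 and an FDR below 0.05, were required to overlap between replicates by more than 25%, read here as 25% of both peaks, and the regions of the 2 orders were then overlapped in the same way. This gave 4020 regions, and 4444 when 25% of either peak was enough, with 0 SALL promoters in both cases. The study itself reported more regions than either of these rebuilt sets. A region shared by both orders, called a reciprocal region here, was found at 0 of the 4 SALL promoters, against 20.9% of protein-coding genes. In K4-K119 alone 2 members had a replicated region (33.0% of genes), and in K119-K4 alone 0 members had one (30.0% of genes). The K4-K119 region at SALL3 (78978001-78981600) covered the main start. The one at SALL2 (21535501-21535700) rested on 2 reads in each replicate and was lost when peaks of at least 10 reads were required.

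The fold filter decided the result at SALL4. Its large peak had log2 folds of 4.31, 0.64, 1.25 and 0.70, so 1 library of each order passed and 1 failed. In K4-K119 replicate 1, 104200 of the 104207 listed peaks passed the filters, so a pass there says little about SALL4. Without the fold filter SALL4 had a reciprocal region of 3500 bp (51799101-51802600), and it was the only one of the 4 (30.2% of genes had one). In this setting 3 members had a K4-K119 region (44.3% of genes) and 1 a K119-K4 region (37.0% of genes). SALL4 also had the reciprocal region at a fold threshold of 0.5, which was tried after seeing the data (29.3% of genes had one). Of the 5765 genes with peaks of at least 10 reads in all 4 reChIP libraries, 1871 (32.5%) likewise had no reciprocal region at the study's fold, and 1793 of those had one without it.

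The input reads and their scale set the fold of the SALL4 peak beside its reChIP reads. The peak held 47, 34, 28 and 26 input reads in the 4 libraries, or 13.8, 12.1, 10.8 and 10.8 per kb, against medians of 4.80, 3.91, 4.00 and 3.75 over promoter peaks of at least 10 reads. At least 98.7% of those peaks had less input per kb than SALL4 in each library. Its reChIP reads per kb were also high, 90.0, 74.6, 121 and 63.8, above 85.3%, 93.4%, 82.5% and 77.9% of the same peaks. Its log2 folds were low among them, above only 26.9%, 8.42%, 27.9% and 6.39%. Of these peaks, 100%, 70.4%, 82.8% and 79.8% had a log2 fold above 1. Reads per input read were 6.51, 6.15, 11.25 and 5.88 and thus close to each other in K4-K119 replicates 1 and 2, whose log2 folds differed by far more. A log2 fold of 1 needed 0.657 reads per input read in K4-K119 replicate 1 and 7.90 in replicate 2, and 9.48 and 7.24 in the K119-K4 replicates.

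High input was also seen around SALL4, to a lesser degree. Promoter peaks of at least 10 reads within 2 Mb of the gene, 11 to 30 per library, had medians of 8.21, 7.28, 7.28 and 6.67 input reads per kb. ATP9A, a lipid flippase gene whose start lies 34131 bp downstream, had 439, 261, 439 and 164 promoter reads, and it had a reciprocal region. Its main peak held 22, 22, 17 and 10 input reads, fewer than SALL4 in each library, and its log2 folds were 5.92, 1.59, 2.45 and 2.16. The origin of the high input was not tested.

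At SALL3 and SALL2 the filters acted on different libraries. The main SALL3 peak had log2 folds of 6.26, 1.08 and 0.78 in the 3 libraries that listed it, and the proximal SALL2 peak had 5.57, 0.63 and 0.84. Their input was at or below the medians given above, between 3.10 and 4.00 reads per kb. Their reChIP read density in K4-K119 replicate 2 and K119-K4 replicate 1 was low, above only 10.5% to 15.7% of promoter peaks. In these libraries the same peaks were wide, above 75.9% to 90.6% of promoter peaks in width, and density is reads divided by width. The exon 2 peak of SALL3 had log2 folds of 4.44, 0.93 and 1.38. With no fold filter and without K119-K4 replicate 2, a combination tried after seeing the data, SALL2, SALL3 and SALL4 had reciprocal regions, as did 38.6% of genes.

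The order of the antibodies was compared by edgeR's quasi-likelihood test on promoter peak reads, K119-K4 against K4-K119, over the 5973 genes with at least 10 reads in each of the 4 reChIP libraries. SALL4 was the only member that entered it. After TMM scaling its values were 248, 326, 275 and 315 CPM, counts scaled to a common library total. The log2 difference was 0.04 with a standard error of 0.23 (Benjamini-Hochberg adjusted p = 0.943, edgeR), which is smaller than the spread between replicates. The test called 0 genes (0.00%) at an adjusted p below 0.05, with 1136 at an unadjusted p below 0.05, and DESeq2 called 87, not including SALL4. The count also rose to 135 when libraries were scaled by total listed reads, to 450 without K119-K4 replicate 1 and to 726 with replicate number as a block, and SALL4 was not called in any of these fits.

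SALL2 and SALL3 entered only when fewer reads were asked for or K119-K4 replicate 2 was left out. With at least 10 reads in 2 of the 4 libraries, the log2 difference of K119-K4 against K4-K119 was -1.55 with a standard error of 1.03 at SALL2 and -1.82 with 1.11 at SALL3 (edgeR adjusted p = 0.779 and 0.738). In K119-K4 replicate 2 the counts of both genes came only from peaks of 2 reads. Reads under the calling threshold are missing from them, so these differences do not measure an effect of the order. Both differences moved towards 0 without K119-K4 replicate 2. In that fit the differences were -0.83 (standard error 0.39) and -1.05 (standard error 0.34), with edgeR adjusted p = 0.281 and 0.153, so neither was called. SALL1 did not enter any of these fits.

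The genes next to the SALL genes were read in the same way. Within 250 kb, SALL1 had 12 other annotated genes and none of them was protein-coding. SALL2 had 32, of which 10 were protein-coding, SALL3 had 10 with 1 protein-coding, and SALL4 had 6 with 2 protein-coding. ATP9A was the only one of these neighbours with a reciprocal region. ATP9B, a paralog of ATP9A whose start lies 89467 bp downstream of SALL3, had 63, 23, 46 and 24 reads. NFATC2, which encodes a calcium-responsive transcription factor and lies 239690 bp downstream of SALL4, had 233, 49, 88 and 0 reads. Next to SALL2, METTL3, the catalytic subunit of the N6-methyladenosine writer, had 72, 2, 27 and 2 reads, and the olfactory receptor gene OR10G3 at -53730 bp had 2 reads in K119-K4 replicate 2 only.

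The genes with the most similar reads over the 4 libraries were found by the distance between their log2(reads + 1) values. For SALL4 they were B4GALNT1, a ganglioside synthase gene (distance 0.17; 332, 209, 343 and 146 reads), and GPI, a glycolytic enzyme gene (distance 0.17; 331, 210, 285 and 152 reads). For SALL3 they were KCND3, a potassium channel gene (distance 0.17), and PTPRU, a receptor phosphatase gene (distance 0.27), with 4 reads each in K119-K4 replicate 2. For SALL2 they were IKZF1, the lymphoid zinc finger factor Ikaros (distance 0.29; 158, 66, 67 and 5 reads), and PPM1H, a phosphatase gene (distance 0.31). At SALL2 and SALL3 the K119-K4 replicate 2 value in this distance came from peaks of 2 reads, not from a large peak.

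The partners of SALL proteins were read from a list of 14 NuRD genes. Of these, 13 had at least 10 promoter reads in all 4 reChIP libraries, as did 5973 of the 20015 protein-coding genes. A reciprocal region was found at 9, against 20.9% of all genes, and without the fold filter at 13, against 30.2%. GATAD2A, a subunit that joins the parts of the complex, had 275, 186, 405 and 162 reads. The remodeling ATPase CHD4 had 245, 147, 423 and 151 reads, and the scaffold subunits MTA3 and MTA2 had at least 123 and 120 reads in each library. CHD3, HDAC1, HDAC2 and MTA1 had a reciprocal region only without the fold filter. RBBP4, a histone-binding subunit, had none in either setting. It was the only listed gene without 10 reads in all 4 libraries, with 103, 0, 74 and 0 reads. Most NuRD genes are expressed in nearly all cells, and how their count compares with that of other such genes was not tested.

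Of 17 pluripotency and germline factors, with which SALL4 is known to act, 4 (23.5%) had a reciprocal region with or without the fold filter, near the 20.9% and 30.2% of all genes. TFAP2C, a germ cell and trophoblast factor, had 891, 483, 991 and 491 reads, the highest values on the list. TRIM71, a target of the let-7 microRNAs, had 447, 226, 513 and 153 reads, and SOX2, a core pluripotency factor, had 198, 149, 202 and 139. POU5F1 and NANOG, also core pluripotency factors, had no reciprocal region. POU5F1 had 6, 4, 2 and 0 reads, and NANOG had 0, 0, 0 and 3. LIN28B, which blocks let-7 processing, had 18 reads in its lowest library. The median of the lowest library was 0 reads over the list and also 0 over all protein-coding genes.

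Regulators that work beside SALL1 in nephron progenitors and beside SALL4 in limb and heart were read from 2 further lists, to be set against the same 20.9% and 30.2% of all genes. Of 12 nephron progenitor genes 1 had a reciprocal region, CITED1, with 329, 179, 163 and 57 reads, and without the fold filter 3 did. Of 11 limb and heart genes 2 had one, and without the filter 3. These were GLI3, a Hedgehog pathway effector with at least 167 reads in each reChIP library, and the growth factor gene FGF8 with at least 46. Among 9 other zinc finger genes whose proteins, like SALL4, are degraded through cereblon upon binding of thalidomide analogs, 3 had a reciprocal region, ZBTB39, WIZ and ZFP91, with lowest-library reads of 57, 48 and 18. Without the fold filter 4 did. These counts, 33.3% and 44.4% of 9 genes, stand beside 20.9% and 30.2% of all genes.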

How the data were processed

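The deposited files are 1 EPIC2 peak list per library, called by the authors against input in bins of 100 bp on hg38. According to the submitters' processing notes, reads passed through Trim Galore 0.6.6, BWA 0.7.13, SAMtools 1.9, Picard 2.6.0 and deepTools 3.5.0. The deposited counts of reChIP and input reads per peak are raw, the deposited log2 fold sets reads against scaled input, the deposited p-value and FDR test the same within 1 library, and the deposited score restates the fold. Total depth is unknown, and counts cover listed peaks only, which limits the precision of low values.

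From these lists, peaks on chromosomes 1 to 22, X and Y were matched to windows of 1500 bp around GENCODE v44 starts of 20015 genes. Overlaps of more than 25% of both peaks defined shared regions. The methods of the study give the percentage without naming the peak it refers to, so the regions may differ from the study's own set. Promoter reads were compared between orders with edgeR 4.0.16 (TMM, quasi-likelihood, Benjamini-Hochberg adjustment over all genes tested), and with DESeq2 1.42.0 as an alternative. Both steps were tested on simulated data. Scripts used Python 3.11.15, pandas 2.3.3, pysam 0.24.0 and R 4.3.3.

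Groups and replicates came from the labels. Nothing in them ties equal replicate numbers to a shared culture or day. The members, the gene lists and the tests were chosen with earlier results of these data known. Named genes were the 4 members, the nearest protein-coding gene on each side within 250 kb (SALL4 had none upstream), the 2 genes closest in reads, and, per list, up to 4 genes with a reciprocal region and the highest lowest-library reads. LncRNAs that shared a member's peak were also named. RBBP4, CHD3, HDAC1, HDAC2, MTA1, NFATC2, POU5F1 and NANOG were named after their values were seen. Alternatives were other fold, FDR, read, input, overlap and window settings, other scalings, and leaving out each library. The authors' blacklist filter was not repeated.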

Additional observations from a re-analysis of the deposited data

How the results depend on the processing

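The count of SALL promoters with a reciprocal region was 0 under 18 of the 21 alternatives, among them a fold above 2, an FDR below 0.01, other overlaps and windows, the removal of peaks over IgG-IgG peaks, each library left out (0 to 0) and a replicate block that matched equal replicate numbers (0). Many of these alternatives only removed peaks or narrowed windows, which could hardly raise a count of 0, so their result carries little weight. The count was 1 without the fold filter (30.2% of all genes) and 1 at a log2 fold above 0.5 (29.3%). It was 3 with no fold filter and without K119-K4 replicate 2 (38.6%). The last 2 of these settings were chosen after seeing the data. The number of gene and reChIP library pairs with at least 10 promoter reads was 11 of 16 and became 7 when only peaks above the fold were counted, since SALL4 then had 0 reads in both second replicates and SALL2 had 2 reads each in the second K4-K119 and the first K119-K4 replicate. The number of genes called between orders was 0 by edgeR, 135 when libraries were scaled by total listed reads, 87 with DESeq2 and between 9 and 450 with 1 library left out, where the lone library of an order was assumed to vary like the others, and the cause of these differences was not tested. With the replicate block it was 726, although equal numbers share only a label, and the replicate differences of the 2 orders correlated at 0.31 over 5973 genes. SALL4 was not called in any of these 12 alternatives, with log2 differences from -0.15 to 0.27. It could not be fitted with peaks above the fold only, because it then lacked reads in both second replicates. The lists do not give depth, so a missing peak at SALL1, SALL2 or SALL3 cannot be told apart from signal under the calling threshold.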
